A study of Mus musculus with 6 samples.

Results

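The 6 genes described here, Prox1, Lyve1, Pdpn, Thy1, Mmrn1 and Reln, are used as markers of lymphatic endothelial cells, and they were taken by name from a table of 48897 mouse genes. All 6 were present in the table and all passed the filter on low counts. The libraries came from C57BL/6 mice aged 7 to 8 weeks. Some animals had undergone partial hepatectomy (PHx), an operation that takes out a portion of the liver and is followed by regrowth, and control animals a sham operation, and liver sinusoidal endothelial cells were collected on day 14 with magnetic beads against CD146 (the product of Mcam). Each group held 3 libraries, numbered 1, 3 and 4, and nothing in the labels says that they came from separate animals, so a p-value here speaks only of how far these samples spread, and that spread may be technical.

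Lymphatic vessels of the liver run with the portal tracts and drain interstitial fluid and immune cells towards the lymph nodes. Their endothelium is set up by the transcription factor PROX1, depends on the receptor VEGFR3 (Flt4) and its ligand VEGF-C, and carries podoplanin and the hyaluronan receptor LYVE1 on its surface. None of these markers is restricted to lymphatic vessels. Lyve1 is also a gene of sinusoidal endothelium and of some macrophages, Prox1 of hepatocytes, Mmrn1 of platelets and their precursors, and Reln of hepatic stellate cells. Pdpn is known from fibroblasts and mesothelium, and Thy1 from portal fibroblasts and T cells.

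Library sizes ranged from 48488625 to 49611423 counts in PHx and from 38765116 to 51888481 counts in sham, and values are given as CPM (counts scaled by library size), adjusted by the trimmed mean of M-values (TMM). Sinusoidal and general endothelial markers were abundant in every library. The 8 sinusoidal markers, among them Stab1 and Stab2, together gave 15193 to 24487 CPM in PHx libraries and 29664 to 31304 CPM in sham libraries, and the 8 general endothelial markers, Eng and Cdh5 the most abundant, gave 7201 to 10713 CPM in PHx and 11671 to 12391 CPM in sham. No marker of any list was at 0 in all libraries. PHx 4 and PHx 1 held the most RNA of neutrophil genes, with 3800 and 548 summed CPM over 6 markers, against 22.7 in PHx 3 and 21.7 to 267 in sham.

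In edgeR's quasi-likelihood test over 19033 genes, Pdpn and Thy1 were higher after PHx at a Benjamini-Hochberg adjusted p under 0.05. Mmrn1, Reln, Lyve1 and Prox1 did not pass. Of all genes tested, 0.846% were higher and 0.0158% were lower by this rule. The median log2 fold change of the 6 genes was 0.69, against 0.03 over all genes tested. The PHx libraries lay above all sham libraries for 3 of the 6 genes, Pdpn, Thy1 and Mmrn1, as they did for 10.6% of all genes tested. None of the 8 sinusoidal and 8 general endothelial markers passed, and their median log2 fold changes were -0.63 and -0.27. The PHx libraries lay below all sham libraries for 8 and 5 of them, as they did for 9.96% of all genes tested. These libraries are bulk samples, so fewer cells of a type and less RNA per cell cannot be told apart.

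**Figure D1:**
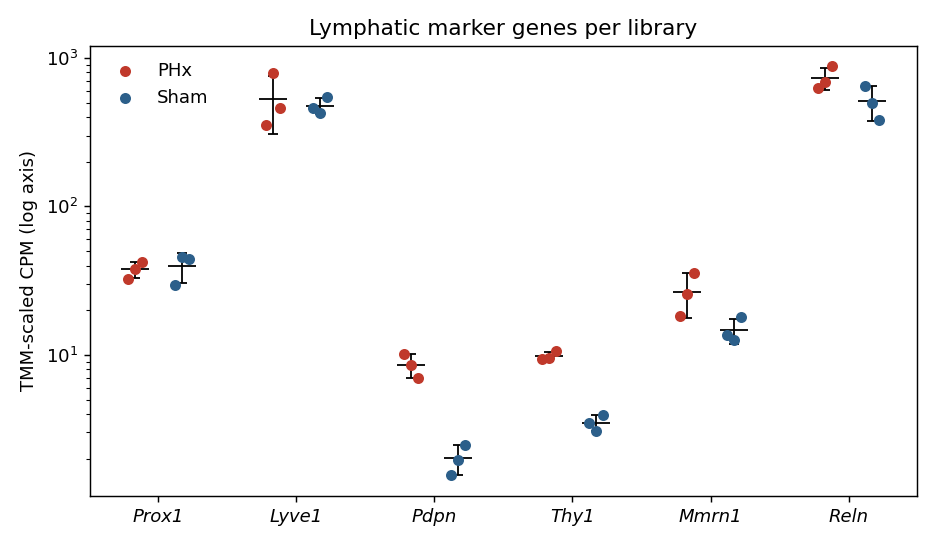
TMM-scaled CPM of the 6 lymphatic marker genes in each PHx (left) and sham (right) library on a log axis; black bars give the mean and SD over 3 libraries. The groups are separate for Pdpn, Thy1 and Mmrn1 and overlap for Prox1, Lyve1 and Reln.

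Promoter sequence was available for 4 of the 6 genes in the RefSeq table of GRCm38.p6; Thy1 and Lyve1 had no entry. The 250 bases upstream of the start are shown for Pdpn, the gene with the largest difference, and for Mmrn1 and Reln, the 2 secreted proteins among the 6 genes. Capitals mark GC boxes (GGGCGG) and E-boxes (CANNTG) on either strand.
Pdpn, chr4:143299565-143299814, minus strand: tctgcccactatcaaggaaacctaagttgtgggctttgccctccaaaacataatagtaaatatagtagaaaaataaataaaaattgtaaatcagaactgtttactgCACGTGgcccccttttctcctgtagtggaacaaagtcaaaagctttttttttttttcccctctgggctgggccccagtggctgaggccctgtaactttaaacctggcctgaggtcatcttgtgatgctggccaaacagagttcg
Mmrn1, chr6:60944067-60944316, plus strand: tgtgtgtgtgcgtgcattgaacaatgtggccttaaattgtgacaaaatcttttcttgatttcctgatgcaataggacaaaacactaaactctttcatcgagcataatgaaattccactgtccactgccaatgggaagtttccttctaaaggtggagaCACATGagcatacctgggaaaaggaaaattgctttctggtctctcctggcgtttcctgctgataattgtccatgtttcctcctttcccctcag
Reln, chr5:22344706-22344955, minus strand: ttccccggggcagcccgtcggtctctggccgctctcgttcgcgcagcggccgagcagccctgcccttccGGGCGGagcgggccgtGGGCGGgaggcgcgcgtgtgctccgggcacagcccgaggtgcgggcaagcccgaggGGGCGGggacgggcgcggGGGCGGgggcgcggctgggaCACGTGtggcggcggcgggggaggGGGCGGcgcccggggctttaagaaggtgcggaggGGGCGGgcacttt

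The windows differ in base composition. The GC content was 43.2% in the Pdpn window, 42.4% in the Mmrn1 window and 80% in the Reln window, against a median of 52.4% over 32851 promoters. The Reln window held 6 GC boxes, a motif found in 32.7% of all promoters, and the windows of Pdpn and Mmrn1 held none. Each of the 3 windows held a single E-box, as 66.2% of all promoters hold at least a single match. In Pdpn and Reln it read CACGTG, a form present in 6.02% of all promoters and counted among the E-boxes too. The AP-1 motif TGANTCA is held by 6.75% of all promoters and had no match in these 3 windows. Neither had the TEAD motif GGAATG (12.6% of all promoters) nor the TATA box, spelled TATAAA (12.4%). A match is a description of the sequence, not a binding site.

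Prox1 encodes the homeobox transcription factor that gives lymphatic endothelium its identity (chromosome 1, 190118035 to 190170680, mm10, minus strand). It stood at 32.6, 38.0 and 42.2 CPM in PHx 1, 3 and 4, against 29.3, 45.8 and 44.0 CPM in Sham 1, 3 and 4. The groups overlapped, with the lowest value in Sham 1 and the highest in Sham 3. The log2 fold change was -0.08 ± 0.19 (SE, n = 3 per group; edgeR adjusted p = 0.887), and it turned to 0.0050 without PHx 1 and to 0.0096 without Sham 3. Hepatocyte markers, which stand for another cell type that uses Prox1, summed to 725 to 1648 CPM over 7 genes in PHx and 1353 to 1861 CPM in sham, and none of the 7 passed the test (median log2 fold change -0.45). Alb, the albumin gene, averaged 710 ± 232 CPM in PHx and 972 ± 206 CPM in sham, and Trf, the transferrin gene, 402 and 352 CPM. The part of hepatocyte RNA in the Prox1 counts was not tested.

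Lyve1 encodes the hyaluronan receptor that is widely used to stain lymphatic vessels (chromosome 7, 110850607 to 110862953, minus strand). Its values were 351, 787 and 460.3 CPM in PHx 1, 3 and 4, against 463, 428 and 544 CPM in Sham 1, 3 and 4. The lowest and the highest library both belonged to the PHx group, and the remaining 4 lay close together. The log2 fold change was 0.16 ± 0.29 (edgeR adjusted p = 0.851), and it turned to -0.25 without PHx 3. PHx 3 was also the PHx library with the most sinusoidal marker RNA, at 24487 summed CPM against 18320 in PHx 1 and 15193 in PHx 4. The order was not kept elsewhere. PHx 1 had more of it than PHx 4 but less Lyve1, and all sham libraries had more than PHx 3, at 29664 to 31304 CPM, with less Lyve1. Macrophage markers summed to 96.5 to 155 CPM over 8 genes in PHx and 108 to 465 CPM in sham. No macrophage marker passed, and their median log2 fold change was -1.37. The 2 most abundant, Csf1r and Cd5l, averaged 55.1 and 19.1 CPM in PHx and 70.0 and 65.6 CPM in sham. The part of sinusoidal or macrophage RNA in the Lyve1 counts was not tested.

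Pdpn encodes podoplanin, a mucin-like membrane protein that binds the platelet receptor CLEC-2 and keeps lymphatic and blood vessels apart (chromosome 4, 143267409 to 143299564, minus strand). It was counted 527, 418 and 338 times in PHx 1, 3 and 4, against 59, 102 and 122 times in Sham 1, 3 and 4. As TMM-scaled levels these were 10.2, 8.56 and 7.04 CPM in PHx, against 1.56, 1.97 and 2.48 CPM in sham. Every PHx library lay above every sham library, and the lowest PHx value was well clear of the highest sham value. Pdpn rose by a log2 fold change of 2.10 ± 0.27, or 4.28-fold (edgeR adjusted p = 0.0221).

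Thy1 encodes a small glycolipid-anchored surface protein that binds integrins (chromosome 9, 44043384 to 44048579, plus strand). It was counted 482, 464 and 509 times in PHx, against 131, 159 and 193 times in sham. Its levels were 9.31, 9.50 and 10.6 CPM in PHx, against 3.47, 3.07 and 3.92 CPM in sham. The PHx libraries lay close together and above all sham libraries. Thy1 rose by a log2 fold change of 1.49 ± 0.20, or 2.81-fold (edgeR adjusted p = 0.0229). T cell markers, the other common source of Thy1, summed to 17.6, 25.7 and 23.4 CPM over 8 genes in PHx and 24.5, 12.0 and 23.3 CPM in sham, with overlapping groups and a median log2 fold change of 0.15. Lck, a T cell kinase, gave most of the mean sum, at 15.1 CPM in PHx and 13.8 CPM in sham, and Cd4 stood at 2.04 and 1.03 CPM. Cd3d, Cd3e and Cd3g reached at most 1.55 CPM in any library. Their log2 fold changes were -0.49, 0.18 and 1.12, and none passed. The part of T cell RNA in the Thy1 counts was not tested.

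The calls of Pdpn and Thy1 rested on nearly every library, while the size of the difference did not. Without each library in turn the log2 fold change of Pdpn ranged from 1.92 to 2.24 and that of Thy1 from 1.38 to 1.55. The edgeR adjusted p of Pdpn was 0.0684 without PHx 1, 0.0546 without PHx 3, 0.0969 without Sham 1, 0.151 without Sham 3, 0.0944 without Sham 4 and 0.0259 without PHx 4. For Thy1 the edgeR adjusted p was 0.0646, 0.0561, 0.105, 0.164, 0.129 and 0.0446 in the same order of libraries. DESeq2 on all libraries called both genes, as it called 3.8% of its genes higher. Without Sham 4 edgeR called 0 genes of any kind, although 2241 had an unadjusted p under 0.05, and DESeq2 on those 5 libraries called 561 genes higher (3.06%) and 53 lower, with Pdpn and Thy1 among the higher ones (adjusted p = 4.04e-10 and 2.24e-08).

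Mmrn1 encodes multimerin 1, a large secreted protein of platelets and endothelium (chromosome 6, 60944317 to 60989378, plus strand). It stood at 18.3, 25.7 and 35.8 CPM in PHx 1, 3 and 4, against 13.5, 12.5 and 17.9 CPM in Sham 1, 3 and 4. The groups did not overlap, but PHx 1 and Sham 4 were nearly level. The log2 fold change was 0.86 ± 0.26, which did not pass (edgeR adjusted p = 0.244; DESeq2 adjusted p = 0.0546). PHx 4, the highest library for Mmrn1, also had the highest platelet marker sum, of which Itga2b gave 68.4 CPM. Gp9 and Gp1bb were also highest in PHx 4, at 2.31 and 0.604 CPM, while Pf4, Ppbp and Gp6 were not. The 6 platelet markers summed to 32.6, 22.6 and 74.4 CPM in PHx and 24.5, 17.3 and 16.8 CPM in sham. None of the 5 that could be tested passed, and Itga2b and Pf4, the most abundant, had log2 fold changes of 1.26 ± 0.54 and 0.30 ± 0.28. The part of platelet RNA in the Mmrn1 values was not tested.

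Reln encodes reelin, a large protein secreted by lymphatic endothelium and stellate cells that signals through the lipoprotein receptors Vldlr and Lrp8 to the adaptor Dab1 (chromosome 5, 21884454 to 22344705, minus strand). Its levels were 632, 693 and 878 CPM in PHx 1, 3 and 4, against 649, 497 and 384 CPM in Sham 1, 3 and 4. Sham 1 lay above PHx 1, so the groups overlapped. The log2 fold change was 0.53 ± 0.22 (edgeR adjusted p = 0.380). Vldlr and Dab1 were scarce, at 3.09 and 2.67 CPM in PHx and 2.26 CPM each in sham, and none of the 3 receptor and adaptor genes passed. Several low-count antisense genes and pseudogenes lie within the Reln span and their largest count in any library was 172, for Gm16111 in PHx 1, against 18878 to 42151 counts of Reln per library.

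Levels can be compared between genes only per length, which the deposited RPKM values (counts scaled by gene length and library size, without TMM) allow. In PHx the order was Lyve1 at 205 ± 81.3, Reln at 63.4 ± 9.47, Mmrn1 at 5.76 ± 1.75, Thy1 at 5.72 ± 0.33, Pdpn at 4.75 ± 1.06 and Prox1 at 4.48 ± 0.42 RPKM (SD, n = 3). Lyve1 and Reln were far above the other 4 genes, whose neighbours in this order did not differ beyond their spread. In sham the order was Lyve1 at 181 ± 22.5, Reln at 42.9 ± 10.8, Prox1 at 4.64 ± 1.10, Mmrn1 at 3.12 ± 0.61, Thy1 at 1.98 ± 0.24 and Pdpn at 1.08 ± 0.25 RPKM. There the libraries of Prox1 and Mmrn1 overlapped, while those of Mmrn1, Thy1 and Pdpn were separate from each other.

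Of 11 other lymphatic endothelial genes none passed edgeR's test, 7 had a negative log2 fold change, and the median was -0.27. Flt4, the VEGF-C receptor, which sinusoidal endothelium also carries, was the most abundant, with 1873 CPM in PHx and 2765 CPM in sham and a log2 fold change of -0.56 ± 0.18 (edgeR adjusted p = 0.276). Itga9, an integrin subunit of lymphatic valves, had a log2 fold change of -0.16 ± 0.16 (edgeR adjusted p = 0.708). The PHx libraries lay above all sham libraries for 2 of the 11 genes, Ccl21a and Foxc2, and below them for 3, Flt4, its co-receptor Nrp2 and the transcription factor Sox18, against 10.6% and 9.96% of all genes tested. They also lay below for 8 of 8 sinusoidal and 5 of 8 general endothelial markers, whose median log2 fold changes were -0.63 and -0.27. The part of sinusoidal RNA in the values of the 11 genes was not tested. Ccl21a, a chemokine of lymphatic endothelium with near-identical copies that may share its reads, stood at 24.6 CPM in PHx and 12.7 CPM in sham, and Foxc2, a transcription factor of lymphatic valves, at 3.93 and 1.67 CPM. Those genes are named because their groups did not overlap, which was seen in the data.

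Among 8 genes of lymphangiogenic signalling 1 rose and 7 did not pass, with a median log2 fold change of 0.50. The gene that rose was Ccbe1, a secreted cofactor for the processing of VEGF-C, at 29.1 ± 2.60 CPM in PHx and 16.5 ± 1.54 CPM in sham (log2 fold change 0.82 ± 0.13, edgeR adjusted p = 0.0415). The PHx libraries lay above all sham libraries for 4 of the 8, Ccbe1, Vegfd, Adamts3 and Calcrl. They lay below them for 2, Ramp2 and Angpt2, against 10.6% (higher) and 9.96% (lower) of all genes tested. Vegfd, at 2.60 CPM in PHx and 0.54 CPM in sham, had the largest log2 fold change, 2.26 ± 0.51 (edgeR adjusted p = 0.117). Of 6 integrin and syndecan partners of Thy1, Itgb5 and Itgav rose (0.82 ± 0.10 and 0.89 ± 0.15, edgeR adjusted p = 0.0221 and 0.0491) and 4 did not pass, with a median of 0.92. None of the 5 podoplanin partners passed. The most abundant were Msn, a linker of membrane to actin, and the GTPase Rhoa, with log2 fold changes of -0.02 ± 0.12 and -0.05 ± 0.11. The PHx libraries lay below all sham libraries for Clec1b, the gene of CLEC-2, and above them for Ezr. Their log2 fold changes were -0.71 ± 0.21 and 0.75 ± 0.20. Such separation was seen for 9.96% (lower) and 10.6% (higher) of all genes tested. Of 8 hyaluronan genes 7 could be tested and none passed. Tmem2, a hyaluronidase of the cell surface, and Hyal2, another hyaluronidase, had log2 fold changes of 0.05 ± 0.16 and -0.44 ± 0.18.

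The summed levels of fibroblast, stellate and mesothelial markers were higher in every PHx library than in any sham library, as were Pdpn and Thy1. Of 17 fibroblast markers 4 rose, none fell and 13 did not pass, with a median of 1.53, and the PHx libraries lay above all sham libraries for 13 of the 17. The groups overlapped for Mfap5, Pi16, Entpd2 and Clec3b. The 4 that rose were Col3a1, Col5a1, Col1a2 and Lum, which encode collagen chains and a matrix proteoglycan. Their log2 fold changes were 2.51, 2.16, 2.78 and 1.68. Summed over the list, fibroblast markers gave 4900, 6157 and 5442 CPM in PHx 1, 3 and 4, against 1625, 1411 and 1354 CPM in Sham 1, 3 and 4. Dcn, Col3a1, Col1a2 and Col1a1 gave most of that sum, with 1468, 1306, 875 and 858 of a mean of 5500 CPM in PHx. Of 10 stellate markers 7 rose and 3 did not pass, with a median of 1.15. Des, Hand2, Lhx2 and Lrat had the smallest adjusted p among them, with log2 fold changes of 1.30, 1.14, 0.91 and 0.92, and the list summed to 2884, 2620 and 2887 CPM in PHx and 1849, 1483 and 1357 CPM in sham. Among the 9 mesothelial markers, 2 rose, Upk1b (2.88) and Msln (2.53), and 7 did not pass, with a median of 2.23 and sums of 210, 164 and 113 CPM in PHx and 60.0, 58.7 and 76.7 CPM in sham. The part of fibroblast or mesothelial RNA in the Pdpn and Thy1 counts was not tested.

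**Figure D2:**
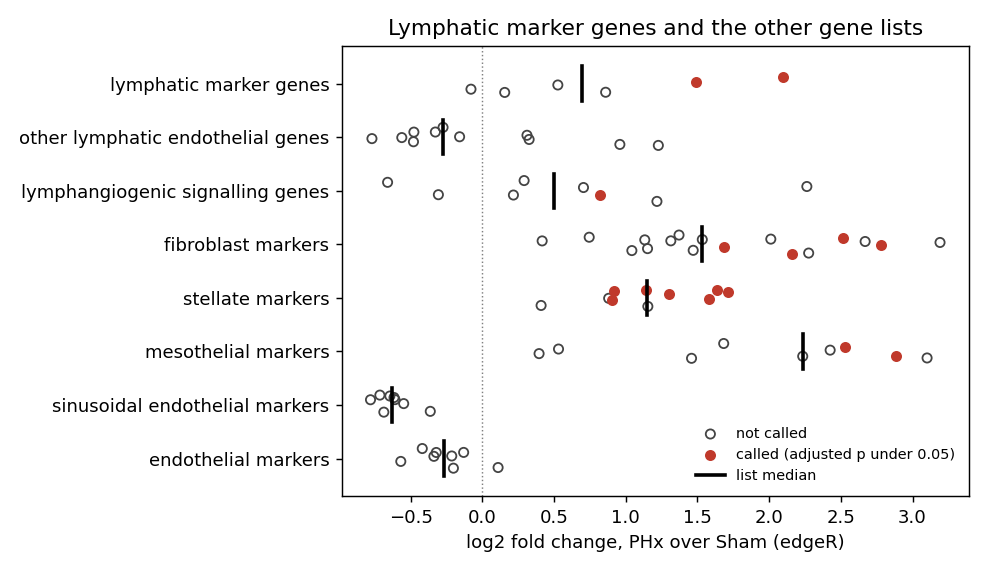
Log2 fold change (PHx over sham, edgeR) of each tested gene in 8 lists; filled points passed an adjusted p under 0.05 and black bars are list medians. Pdpn, at 2.10, lies within the fibroblast and mesothelial ranges and above the highest stellate marker (1.71), and Thy1, at 1.49, within all 3 ranges. Mmrn1 and Reln, at 0.86 and 0.53, also lie within these 3 ranges, near their lower ends, and Lyve1 and Prox1, at 0.16 and -0.08, lie below them.

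Each gene was also set against the summed fibroblast markers of the same library. The log2 sum of those markers was itself higher by 1.91 in PHx, so a gene with equal mean log2 levels in both groups gives a difference of -1.91 by construction, and the ratio restates a gene's own difference less that shift. Pdpn gave 2.08, 1.39 and 1.29 CPM per 1000 CPM of fibroblast markers in PHx, against 0.962, 1.40 and 1.83 in sham. These ranges overlapped, and the mean log2 ratio differed by 0.20 (PHx minus sham; exact two-sided permutation p = 0.6). Thy1 gave 1.90, 1.54 and 1.95 CPM per 1000 CPM in PHx, against 2.14, 2.18 and 2.90 in sham. Its PHx libraries were all slightly below the sham libraries, with a difference of -0.41 (exact permutation p = 0.1, the smallest that 3 against 3 libraries allow). Against the mean log2 CPM of the fibroblast markers in place of their sum, the difference was 0.37 for Pdpn (exact permutation p = 0.1) and -0.24 for Thy1 (exact permutation p = 0.3).

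The other 4 genes gave differences in mean log2 ratio of -1.97 for Prox1, -1.83 for Lyve1, -1.36 for Reln and -1.08 for Mmrn1. Prox1 and Lyve1 were thus close to the value of a gene with equal levels, and Reln and Mmrn1 lay between that value and those of Pdpn and Thy1. Reln, for example, gave 129, 112 and 161 CPM per 1000 CPM of fibroblast markers in PHx, against 400, 352 and 283 in sham.

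Set against summed stellate markers, the order of closeness was another. The stellate sum was higher by 0.85 on the log2 scale in PHx, so a gene with equal levels gives -0.85. Mmrn1 and Reln were then nearest to 0, at -0.03 and -0.30 (exact permutation p = 1 and 0.2), with overlapping groups. Thy1 was at 0.64, of the opposite sign to its value against fibroblast markers, and Pdpn was farthest from 0, at 1.26 (exact permutation p = 0.1 for each). Lyve1 and Prox1 were at -0.77 and -0.91, again close to the value of a gene with equal levels. Which of the 6 genes kept the most even ratio between the groups therefore depended on the list it was set against, fibroblast markers for Pdpn and Thy1 and stellate markers for Mmrn1 and Reln.

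**Figure D3:**
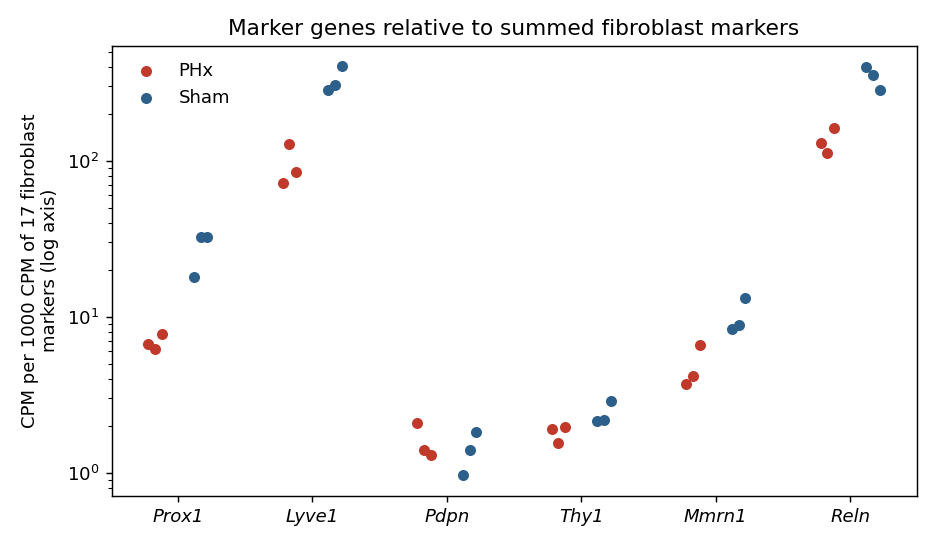
CPM of each lymphatic marker gene per 1000 CPM of the 17 summed fibroblast markers, per PHx (left) and sham (right) library, on a log axis. Pdpn overlaps between the groups, and Thy1, Prox1, Lyve1, Mmrn1 and Reln are lower in all PHx libraries; a gene with equal levels in both groups would lie lower in PHx by 1.91 on the log2 scale.

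The closeness of whole profiles was described by the root mean square difference of log2 levels over the 6 libraries, each profile centred on its mean. Of 17 list sums, that of the fibroblast markers was nearest to Pdpn (0.35) and to Thy1 (0.28), followed in both by the mesothelial sum (0.43 and 0.34). The fibroblast sum mostly reflected Dcn, Col3a1, Col1a2 and Col1a1. For Reln the nearest was the stellate sum (0.23), for Mmrn1 the sum of Thy1 partners (0.35) and next the stellate sum (0.38). The sum of Thy1 partners was highest in PHx 4, the library with the most neutrophil RNA, at 819 CPM. Itgam and Itgb2 gave 197 and 155 CPM of it there. Lyve1 and Prox1 were nearest to the lymphangiogenic signalling sum (0.29 and 0.23), which varied little between libraries. Calcrl and Ramp2 gave most of that sum, with 589 and 294 of a mean of 1061 CPM in PHx. Pdpn and Thy1 differed between PHx libraries: Pdpn was highest in PHx 1 and Thy1 in PHx 4, and the ratio of Pdpn to Thy1 CPM was 1.09, 0.901 and 0.664 in PHx 1, 3 and 4, against 0.450, 0.642 and 0.632 in Sham 1, 3 and 4. PHx 1 was also the library with the most mesothelial marker RNA. In sham the order was not kept, as Sham 3 had the highest ratio and the lowest mesothelial sum, 58.7 CPM. A link between this ratio and mesothelial RNA was not tested.

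**Figure D4:**
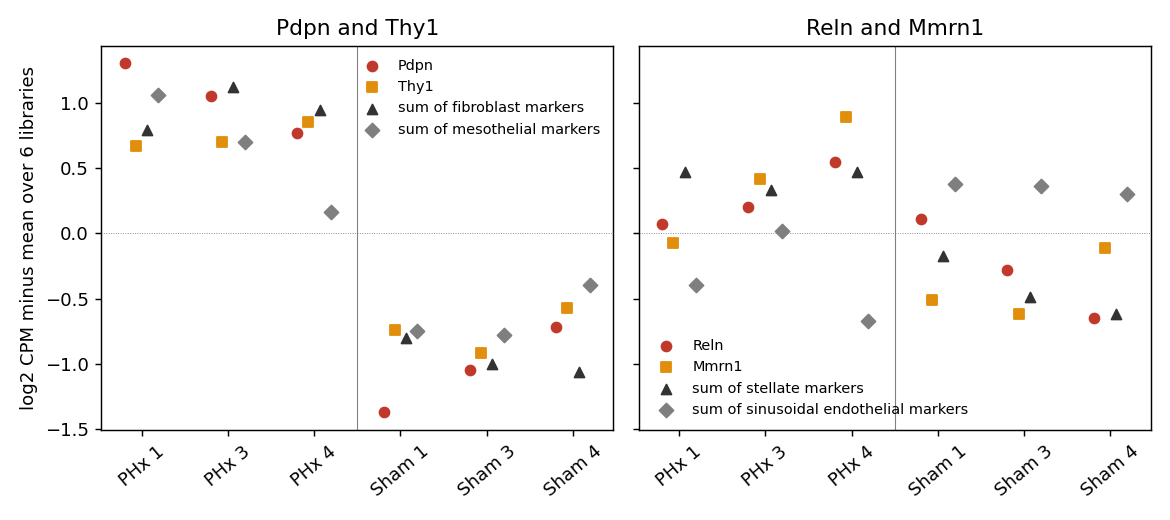
Centred log2 CPM in each library (PHx at left, sham at right) for Pdpn and Thy1 with the fibroblast and mesothelial sums, and for Reln and Mmrn1 with the stellate and sinusoidal sums. Pdpn and Thy1 are above their mean in all PHx libraries, as are both sums beside them, and Reln is above its mean in Sham 1 too.

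Single genes with the most similar profiles were taken among 11038 genes with at least 5 CPM on average. For Pdpn they were Tmem119, Adgrd1 and Loxl1, an enzyme that cross-links elastin, with root mean square differences of 0.16, 0.22 and 0.24. For Thy1 they were Mmp23, Sh3pxd2b and Gabra3 (0.12, 0.15 and 0.15). All of these 6 genes were called higher. Mmrn1 was nearest to Ptp4a1, Clec12b and Slc12a2 (0.11, 0.11 and 0.12) and Reln to Tbc1d16, Igsf10 and Tyro3 (0.07, 0.11 and 0.11). Lyve1 was nearest to Adamts6, Hpgd and Vav3 (0.05, 0.11 and 0.13), and Prox1 to Frg1, Nfyb and Zfp628 (0.05, 0.06 and 0.08). With 6 libraries and this many genes, close profiles are a description of these libraries.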

How the data were processed

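RNA of 3 PHx and 3 sham libraries was compared. A single deposited table held raw counts and RPKM values per gene; per the submitters' processing notes, bcl2fastq, TopHat2 2.0.13 and mm10 (GRCm38) were used. The counting program, annotation release and use of strand are not given in the sources used here, so overlapping, antisense and near-identical genes cannot be told apart. Counts as deposited were tested with edgeR 4.0.16 (R 4.3.3) with TMM scaling, filterByExpr, robust quasi-likelihood F-tests and group as the only term, and p-values were adjusted over 19033 genes. SE is the absolute log2 fold change over the square root of F. A count of 0 allows up to 3 counts. The model was tested on simulated data. Alternatives used other scaling and filters, DESeq2 1.42.0, limma-voom (limma 3.58.1), the replicate number as a block and the omission of each library. 27 names turned into dates were restored. All 138 list entries were matched, Cemip2 as Tmem2 and Tf as Trf.

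The members, lists and tests were chosen with earlier results of these data known. Named genes are the 6 members, up to 4 called genes per list by smallest adjusted p, or else its 2 most abundant, and the 3 genes nearest in profile to each member; others are named as seen in the data. Log2 CPM for profiles used a prior count of 2. No library was a copy of another (chi-square per degree of freedom at least 49.9 in every pair). The floor of 3 counts covers counting error only, while each SD and SE includes the spread between libraries.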

Additional observations from a re-analysis of the deposited data

How the results depend on the processing

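The log2 fold changes of Pdpn and Thy1 kept their sign in all alternatives run, and both genes were called with other scaling factors, other filters, DESeq2 and limma-voom. Blocking on replicate number gave 2.10 (adjusted p = 0.134) and 1.49 (adjusted p = 0.129), and 0 of the 6 members were called. Deviations from the group means correlated by -0.09, -0.23 and 0.03 between libraries of number 1, 3 and 4. With 3 libraries per group these values cannot tell whether the numbers mark pairs or batches. The number of members called higher was 0 to 2 when each library was left out in turn. Those fits gave 1.92 to 2.24 for Pdpn, 1.38 to 1.55 for Thy1, -0.25 to 0.38 for Lyve1 and -0.28 to 0.0096 for Prox1, and the Pdpn ratio to fibroblast markers ranged from -0.044 to 0.42. Against stellate markers the Thy1 ratio turned to 0.64. Over all genes 161 were higher and 3 lower. The counts were 728 and 84 with DESeq2, 561 and 53 with DESeq2 without Sham 4 (chosen after seeing the data), 94 and 1 with limma-voom, 359 and 30 without a count filter, and 14 and 1 with the block. Leaving out each library gave 0 to 160 higher and 0 to 9 lower. Fewer samples entered those fits, and otherwise the cause was not tested. Pdpn in sham rested on 59 to 122 counts per library.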
